A study of Mus musculus with 4 samples.

Results

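The matrix proteases and their inhibitors were examined as 37 genes chosen by family: the matrix metalloproteinases (MMPs), the tissue inhibitors of metalloproteinases (TIMPs) with Reck, and selected members of the membrane-bound ADAM and the secreted ADAMTS families. A probe set, the group of probes that reads 1 transcript on the array, was taken for a gene where the platform annotation gives that gene as its only symbol, and where a gene had several, the brightest on average was used. This gave values for 32 of the 37 genes, out of 17097 genes measured. Mmp15, Mmp25, Mmp28, Timp4 and Adamts2 were not analysed here. Total RNA came from bulk 4T1Ch9 tumors, a cherry-tagged line of triple negative breast cancer (TNBC) of Balb/c background, grown in the mammary fat pad of mice from 50000 injected cells. Tumors were left to establish for 10 days. Both groups carried the same tumor and differed in treatment: the MEKi group received trametinib, an inhibitor of the MEK kinases, at 1 mg/kg daily by oral gavage for 7 days, and the vehicle group received the PEG and solutol carrier. Each group had 2 Affymetrix MG-430PM arrays. The methods describe young female wild-type Balb/c hosts, but the sources do not say whether each array came from its own mouse. The p-values therefore reflect the scatter between arrays, which could be technical, and so few arrays limit the precision.

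MMPs are zinc enzymes, made as inactive precursors, that together cut most components of the extracellular matrix. TIMPs block their active site, and Reck restrains several of them at the cell surface. ADAMs mainly cut the outer parts of membrane proteins, releasing growth factors, cytokines and adhesion molecules, while ADAMTSs act on proteoglycans, procollagens and other matrix proteins. In breast tumors many of these enzymes are made by fibroblasts, macrophages, neutrophils and endothelial cells as well as by the cancer cells. Several MMP genes are classical targets of AP-1, the Fos and Jun dimer that acts downstream of the MEK and ERK kinases.

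All values are log2 expression values, normalized together over the arrays. A pair of readings is given with array 1 of the group first, and 4 readings in a row follow the order MEKi 1, MEKi 2, vehicle 1, vehicle 2. The medians of the arrays lay between 4.98 and 5.14 and their 25th percentiles between 3.85 and 3.88, so readings at about 4 or below lay near the lowest values these arrays give and their differences may understate a true change. Before the genes are described, the arrays themselves need a caution. Across 45037 probe sets, the array labelled MEKi 1 correlated with vehicle 2 at r = 0.992 and MEKi 2 with vehicle 1 at r = 0.978, against 0.927 between the MEKi arrays and 0.959 between the vehicle arrays. These are correlations across probe sets, which are not independent replicates. The arrays also divided by lymphocyte transcripts. The median over 9 B cell genes was 9.55 in MEKi 1 and 9.48 in vehicle 2, but 4.17 in MEKi 2 and 4.10 in vehicle 1, and 11 T cell genes had medians of 9.80 and 9.71 against 4.94 and 5.72 in the same order. Lymph node stroma and high endothelial venule genes, 8 in all, gave 7.69 and 7.82 against 4.03 and 4.69. The labels were kept as given throughout, every difference by label below rests on them, and whether an array carries a wrong label was not tested. Of the receptors whose absence from the cancer cells defines TNBC, Esr1 lay between 3.48 and 4.32, below the median of every array, Pgr read 5.68, 4.07, 6.65 and 6.12, and Erbb2 read 5.85 and 7.60 in the MEKi arrays and 7.04 and 6.56 in the vehicle arrays.

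The MEKi and vehicle arrays were first compared by label, to ask whether protease and inhibitor transcripts differed after treatment. By limma with Benjamini-Hochberg adjustment over 45037 probe sets, 0 of 32 genes passed the thresholds (p under 0.05, fold change over 1.5 and adjusted p under 0.1), against a background of 0% of probe sets called. At an unadjusted p under 0.05, limma gave 1 of the 32, Adamts12, against 1.23% of all genes and 0.901% of probe sets. In 8 of the 32 genes (25.0%) both MEKi arrays read below both vehicle arrays, against 10.2% of all genes, although this number was 1, against 1.25% of all genes, when arrays were centred on tumor epithelial genes, and 10, against 16.3%, when they were centred on reference genes. These 8 were Mmp9, Mmp10, Timp1, Timp3, Adam8, Adam9, Adam10 and Adamts12. In 3 genes (9.38%), Mmp7, Mmp8 and Mmp16, both MEKi arrays read above both vehicle arrays, against 11.0% of all genes, and the groups overlapped in the other 21. The number reading above was 8 (55.4% of all genes) with centring on tumor epithelial genes and 1 (5.83%) with centring on reference genes. The number reading lower was 12 without MEKi 1 (31.3% of all genes), 20 without MEKi 2 (36.1%), 10 without vehicle 1 (26.5%) and 14 without vehicle 2 (24.0%). The number reading higher was 12 without MEKi 1 (38.9%), 7 without MEKi 2 (31.7%), 4 without vehicle 1 (23.2%) and 7 without vehicle 2 (30.5%). The median log2 difference, MEKi minus vehicle, was -0.27 over the 32 genes and 0.01 over all genes, and it was 0.15 after centring on tumor epithelial genes, which moved the median of all probe sets to 0.44. In bulk tumors, fewer cells of a type and less RNA per cell cannot be told apart.

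The genes varied widely between single arrays. The range over the 4 arrays had a median of 1.37 log2 units over the 32 genes and 0.55 over all genes, and it was over 1 log2 unit in 23 genes (71.9%, against 25.4% of all genes). Part of that gap goes with brightness: among genes above the median of at least 1 array, which 27 of the 32 were, the medians were 1.48 and 0.75. Vehicle 1 held the highest reading of 14 genes (43.8%, against 20.1% of all genes). MEKi 2 held that of 10 (31.2%, against 34.8%), MEKi 1 of 6 (18.8%, against 24.9%) and vehicle 2 of 2 (6.25%, against 20.2%). The lowest reading fell in MEKi 1 for 16 of the 32 (50.0%, against 30.0% of all genes). It fell in MEKi 2 for 8 (25.0%, against 27.2%), vehicle 1 for 6 (18.8%, against 26.1%) and vehicle 2 for 2 (6.25%, against 16.7%).

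**Figure D1:**
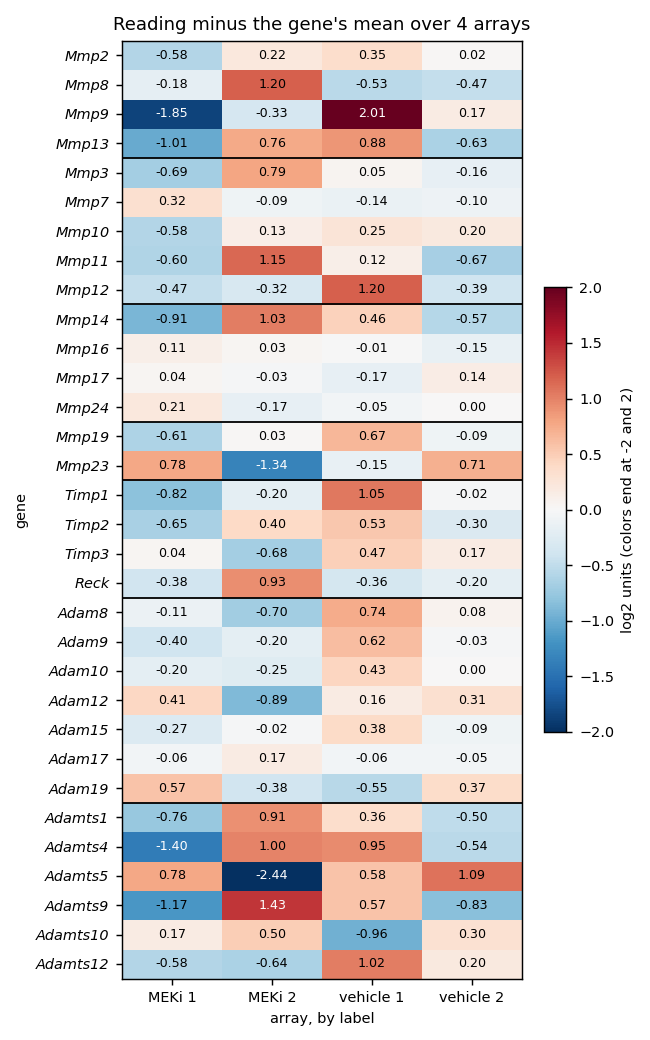
Deviation of each gene from its own mean over the 4 arrays, in log2 units, for the 32 measured genes grouped by role. Vehicle 1 holds the highest value in 14 genes and MEKi 1 the lowest in 16.

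Of the collagenases and gelatinases, Mmp9 had the widest range of all the measured genes of the set. Mmp9, gelatinase B, a type IV collagenase that neutrophils and macrophages release, read 7.37 and 8.89 in the MEKi arrays and 11.23 and 9.39 in the vehicle arrays. Both MEKi arrays lay below both vehicle arrays, and MEKi 2 was closer to vehicle 2 than to MEKi 1. The difference was -2.18 log2 units (SE 0.89, n = 2 arrays per group, limma adjusted p = 1), and it was -1.26 without vehicle 1 and -3.10 without vehicle 2. A further Mmp9 probe set kept the order, at 6.99, 8.32, 10.96 and 9.08. Mmp2, gelatinase A, mostly a product of fibroblasts, read 8.73 and 9.53 in the MEKi arrays and 9.66 and 9.33 in the vehicle arrays. Only MEKi 1 stood low, and the groups overlapped. Mmp13, the main interstitial collagenase of rodents, read 8.85 and 10.62 in the MEKi arrays and 10.73 and 9.22 in the vehicle arrays, so that the arrays with few lymphocyte transcripts read higher and each label held 1 of them. Mmp8, the collagenase of neutrophil granules, read 4.28 and 5.66 in the MEKi arrays and 3.93 and 3.99 in the vehicle arrays. It passed the array median in MEKi 2 alone. The MEKi arrays lay above the vehicle arrays by 1.01 log2 units (SE 0.53, limma adjusted p = 1), with 3 of the 4 readings near the floor. Without MEKi 2 the difference was 0.33, and without MEKi 1 it was 1.70.

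Other neutrophil genes moved with Mmp8 in part. S100a8 read 9.99 and 11.10 in the MEKi arrays and 6.17 and 7.70 in the vehicle arrays, and S100a9 read 10.29, 11.87, 7.09 and 7.92 in the same order. Over the 11 neutrophil genes measured besides Mmp8, both MEKi arrays were above both vehicle arrays in 6 (54.5%, against 11.0% of all genes) and below in 0 (against 10.2%). The medians were 7.46 and 6.66 in the MEKi arrays and 6.17 and 6.60 in the vehicle arrays. Centring on tumor epithelial genes gave 7 above and 0 below, against 55.4% and 1.25% of all genes. Centring on reference genes gave 6 and 0, against 5.83% and 16.3%. MEKi 2 held the highest reading in 6 of the 11 and MEKi 1 in 3, the granule genes Camp, Ngp and Mpo. Ngp read 9.08 and 6.66 in the MEKi arrays and 4.4 and 5.32 in the vehicle arrays, while Ltf, lactoferrin, ran at 8.93, 6.58, 8.85 and 9.16, with MEKi 2 lowest. Their part in the Mmp8 reading was not tested.

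Of the MMP genes, 6, namely Mmp13, Mmp12, Mmp3, Mmp10, Mmp8 and Mmp7, lie in this order in a cluster on chromosome 9, with Mmp1b, Mmp1a, Mmp27 and Mmp20 between them in the RefSeq gene order. As AP-1 acts in the pathway that MEKi blocks, the 110 bases before a start of each are shown, from the RefSeq promoter table (GRCm38.p6), 5′ to 3′. Mmp12 and Mmp7 each have a further start in that source, not shown, whose 110 bases hold neither the AP-1 motif nor the TATA box. Capitals mark the AP-1 motif TGAGTCA on either strand and the TATA box TATAAA on the sense strand, and Mmp8 is included as the cluster gene with neither.
Mmp13, chr9:7272404-7272513, plus strand: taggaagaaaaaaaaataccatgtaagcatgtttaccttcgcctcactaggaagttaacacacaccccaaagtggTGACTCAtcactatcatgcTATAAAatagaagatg
Mmp3, chr9:7445712-7445821, plus strand: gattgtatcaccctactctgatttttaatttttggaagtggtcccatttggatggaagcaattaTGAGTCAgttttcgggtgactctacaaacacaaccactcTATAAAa
Mmp10, chr9:7502232-7502341, plus strand: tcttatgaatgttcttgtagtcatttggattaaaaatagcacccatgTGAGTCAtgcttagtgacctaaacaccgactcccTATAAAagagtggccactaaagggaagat
Mmp7 (the upstream start), chr9:7691980-7692089, plus strand: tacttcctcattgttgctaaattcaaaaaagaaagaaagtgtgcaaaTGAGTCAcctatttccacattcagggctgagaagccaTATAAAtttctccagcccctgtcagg
Mmp12 (the downstream start), chr9:7347264-7347373, plus strand: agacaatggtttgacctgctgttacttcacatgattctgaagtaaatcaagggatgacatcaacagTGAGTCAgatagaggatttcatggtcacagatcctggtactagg
Mmp8, chr9:7558319-7558428, plus strand: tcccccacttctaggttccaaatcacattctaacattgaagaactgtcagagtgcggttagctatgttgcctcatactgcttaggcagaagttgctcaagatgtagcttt

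The AP-1 motif lay 35 bases before the start of Mmp13, on the reverse strand, 44 before the downstream start of Mmp12, 46 before Mmp3, 63 before Mmp10 and 63 before the upstream start of Mmp7, counted from its first base. In Mmp12 the TATAAA match began 4 bases after that start, outside the stretch shown. A promoter window, 250 bases before to 50 after a start, was given for 27 of the 37 genes. The 10 without a window, and so not scanned, were Mmp2, Mmp9, Mmp16, Mmp17, Mmp19, Adam9, Adam12, Adamts4, Adamts5 and Adamts10. Of the 27 genes, 6 (22.2%) held the AP-1 motif in a window, the 5 cluster genes above and Adam19. The shares were 5.95% of 27025 genes and 5.20% of 32851 windows. TATAAA was in 6 of the 27, the same 5 cluster genes and Adamts1, against 9.77% of genes and 8.32% of windows. GC boxes, GGGCGG on either strand, were in 19 (70.4%), against 38.2% of genes and 35.7% of windows, and in none of the 6 cluster genes shown. Neighbouring genes of 1 family are related in sequence, so these matches are not independent, and a match does not show that a factor binds. The motifs were chosen after the expression values had been seen.

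**Figure D2:**
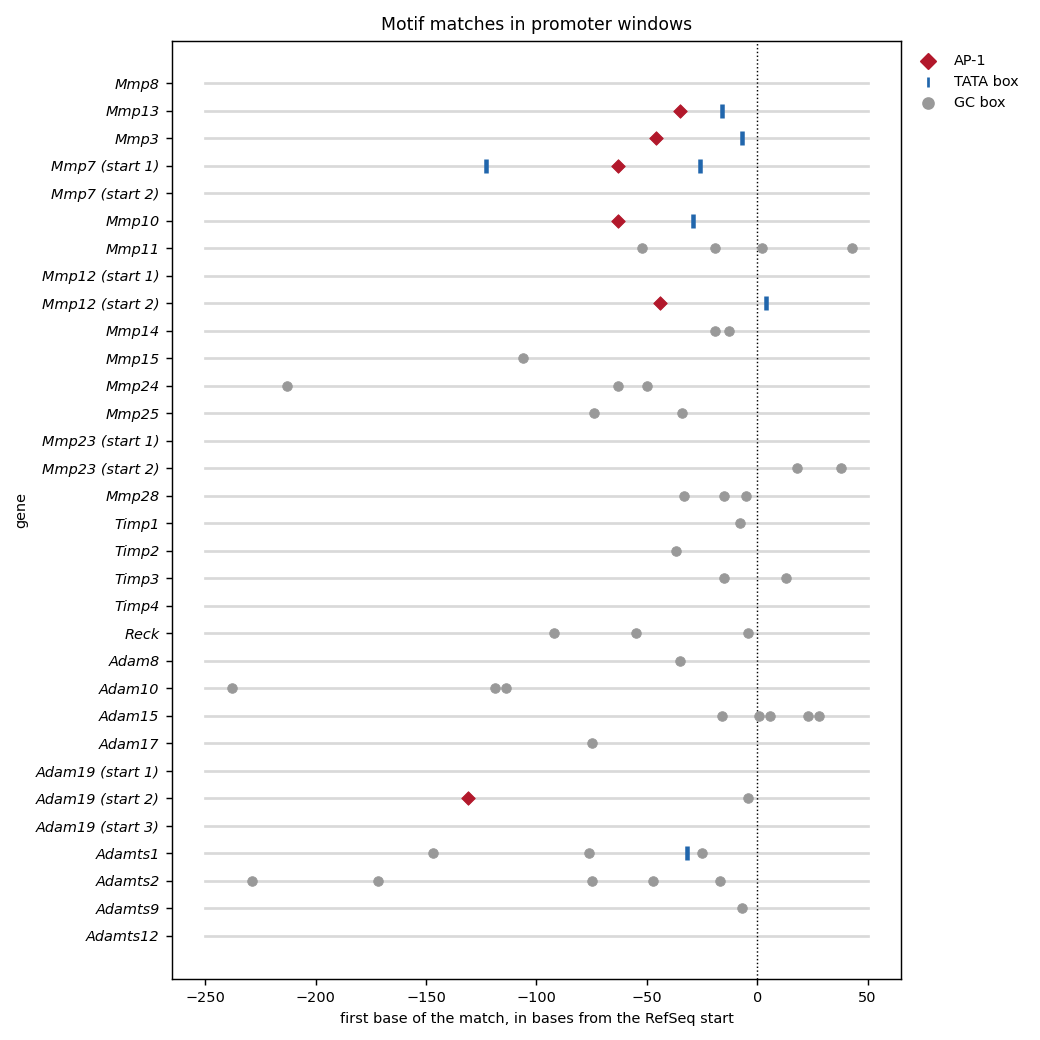
First base of each motif match, in bases from the RefSeq start (dotted line), in the 32 promoter windows (grey lines) of 27 genes. AP-1 (diamonds) and TATA box (blue bars) matches are both present in Mmp13, Mmp3, Mmp7, Mmp10 and Mmp12 (in Mmp12 the TATA box match lies after the start), and GC boxes (grey dots) are in 19 genes, none of them in that group.

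Genes of the cluster with an AP-1 match did not share a single order of arrays. Mmp3, a stromelysin that cuts proteoglycans and activates other MMPs, read 8.80 and 10.28 in the MEKi arrays and 9.54 and 9.33 in the vehicle arrays. The extremes were the 2 MEKi arrays, with vehicle between them. Mmp12, the elastase of macrophages, read 9.58 and 9.73 in the MEKi arrays and 11.25 and 9.66 in the vehicle arrays, so that vehicle 1 stood alone. Mmp10, the stromelysin closest to Mmp3, read 3.95 and 4.67 in the MEKi arrays and 4.79 and 4.73 in the vehicle arrays, below the median of every array. Its MEKi readings were the lower ones, by -0.45 log2 units (SE 0.31, limma adjusted p = 1), mainly through MEKi 1, without which the difference was -0.09. It was -0.03 after centring on tumor epithelial genes, which moved the median of all probe sets to 0.44. Mmp7, matrilysin, a small MMP of epithelial cells, read 4.43 and 4.02 in the MEKi arrays and 3.97 and 4.01 in the vehicle arrays. Its difference of 0.23 (SE 0.22, limma adjusted p = 1) rested on readings near the floor and was 0.03 without MEKi 1. Outside the cluster, Mmp11, a stromelysin typical of tumor fibroblasts, read 6.21 and 7.96 in the MEKi arrays and 6.93 and 6.14 in the vehicle arrays, highest in MEKi 2 with overlapping groups.

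**Figure D3:**
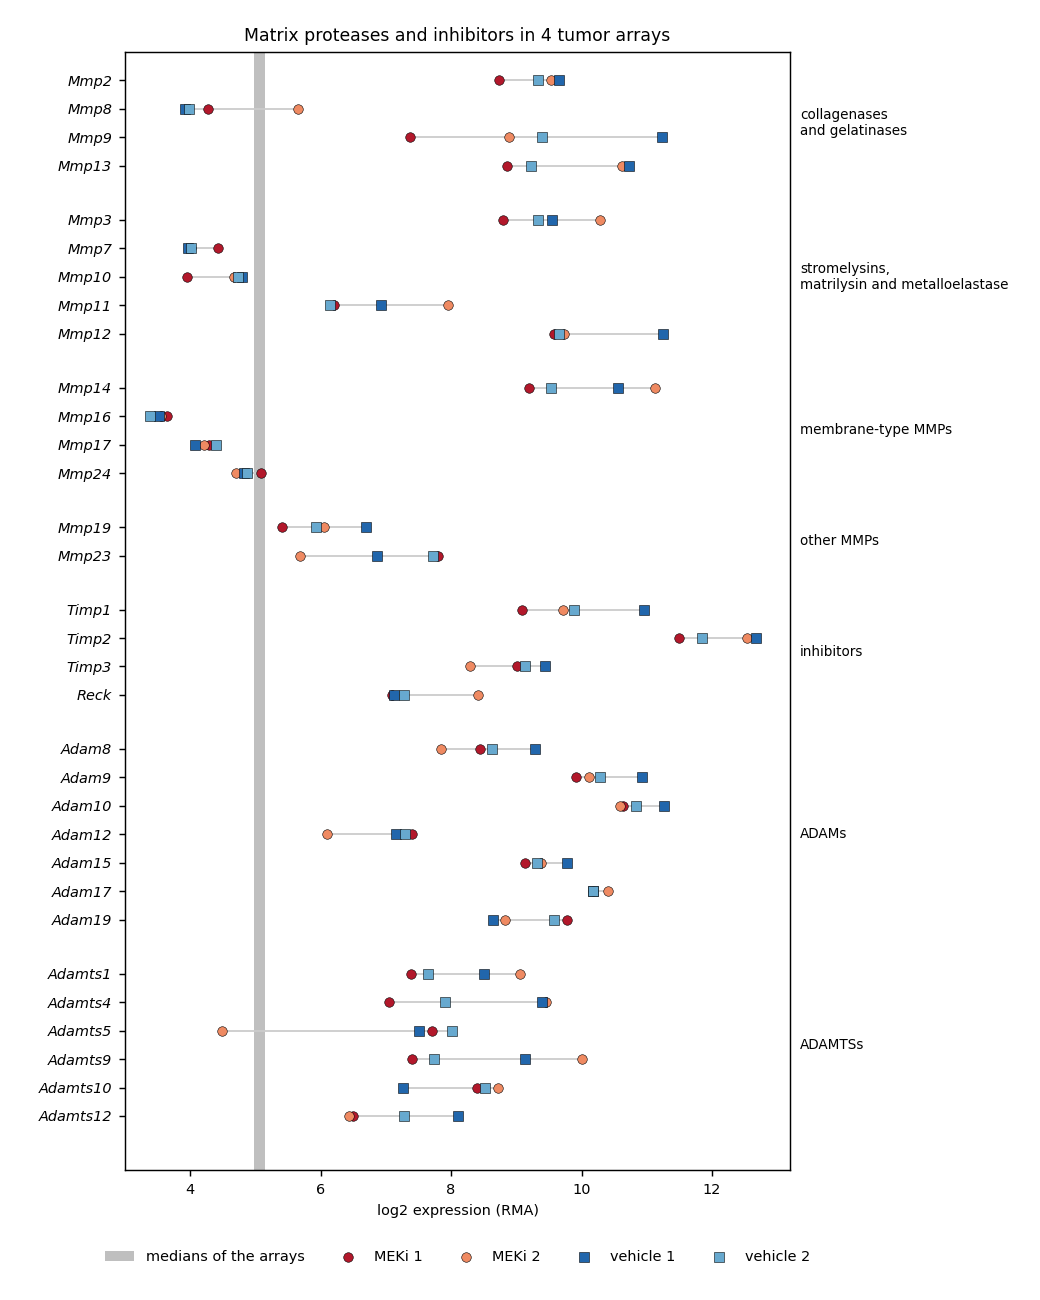
Log2 expression value of each measured gene in each of the 4 arrays (points), grouped by role. Levels of different genes come from different probes and cannot be ranked; Mmp9 spans 7.37 to 11.23 and Adamts5 spans 4.49 to 8.02.

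Among the membrane-type MMPs, Mmp14 was the one read above the array medians. Mmp14, which activates the Mmp2 precursor on the cell surface, read 9.19 and 11.13 in the MEKi arrays and 10.56 and 9.53 in the vehicle arrays. Its second probe set separated the same arrays more widely, at 6.60, 9.02, 8.86 and 6.71 in that order. The groups by label overlapped in both. Mmp16 read 3.64 and 3.56 in the MEKi arrays and 3.52 and 3.38 in the vehicle arrays, and its difference of 0.15 (SE 0.17, limma adjusted p = 1) lay at the floor. Mmp17 read 4.29 and 4.22 in the MEKi arrays and 4.08 and 4.39 in the vehicle arrays. Mmp24 read 5.09, 4.71, 4.83 and 4.88 in the same order. Both lay below the median of every array, with overlapping groups. Of the remaining MMPs, Mmp19 read 5.41 and 6.05 in the MEKi arrays and 6.69 and 5.93 in the vehicle arrays. Mmp23 ran differently, at 7.80 and 5.68 in the MEKi arrays and 6.87 and 7.73 in the vehicle arrays, with MEKi 2 lowest.

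The inhibitors did not all read in 1 direction. Timp1, the inducible inhibitor that pairs with the Mmp9 precursor, read 9.09 and 9.71 in the MEKi arrays and 10.96 and 9.89 in the vehicle arrays, the same order of arrays as Mmp9. Both MEKi arrays were lower, by -1.03 log2 units (SE 0.48, limma adjusted p = 1), but MEKi 2 and vehicle 2 nearly met. Without vehicle 1 the difference was -0.50, and without vehicle 2 it was -1.56. Timp3, which binds to the matrix and also blocks Adam17 and the aggrecanases, read 9.01 and 8.29 in the MEKi arrays and 9.44 and 9.14 in the vehicle arrays. Its difference was -0.64 (SE 0.33, limma adjusted p = 1), or -0.29 without MEKi 2 and -0.22 after centring on tumor epithelial genes, and in its 3 other probe sets the groups overlapped. Timp2, which also assists Mmp14 in activating Mmp2, read 11.49 and 12.54 in the MEKi arrays and 12.67 and 11.84 in the vehicle arrays. All 5 Timp2 probe sets were lowest in MEKi 1. Reck read 7.10 and 8.41 in the MEKi arrays and 7.12 and 7.28 in the vehicle arrays, with MEKi 2 alone high. The median difference over the 4 measured inhibitors was -0.44. It was -0.02 after centring on tumor epithelial genes, which moved the median of all probe sets to 0.44.

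The ADAMs had a median range of 1.02 log2 units over the arrays, against 1.37 over the whole set. Adam8, a leukocyte ADAM, read 8.44 and 7.85 in the MEKi arrays and 9.29 and 8.63 in the vehicle arrays, a difference of -0.81 (SE 0.36, limma adjusted p = 1). Adam9, a widely expressed sheddase, read 9.91 and 10.11 in the MEKi arrays and 10.93 and 10.28 in the vehicle arrays, a difference of -0.60 (SE 0.30, limma adjusted p = 1). Adam10, which cuts Notch receptors and E-cadherin, read 10.64 and 10.59 in the MEKi arrays and 11.27 and 10.84 in the vehicle arrays, a difference of -0.44 (SE 0.23, limma adjusted p = 1). In all of these vehicle 1 was highest and vehicle 2 lay closer to a MEKi array than to vehicle 1. Without vehicle 1 the differences were -0.48 for Adam8, -0.27 for Adam9 and -0.23 for Adam10. After centring on tumor epithelial genes, which moved the median of all probe sets to 0.44, the differences were -0.39, -0.18 and -0.02. The 2 other Adam10 probe sets had overlapping groups. Adam17, the sheddase of TNF and of EGF receptor ligands, had the narrowest range of the set, at 10.17 and 10.40 in the MEKi arrays and 10.17 and 10.18 in the vehicle arrays. Adam15 read 9.13 and 9.38 in the MEKi arrays and 9.78 and 9.31 in the vehicle arrays. Adam12, an ADAM of mesenchymal cells, read 7.40 and 6.10 in the MEKi arrays and 7.15 and 7.30 in the vehicle arrays, and was low in MEKi 2 alone. Adam19, which can shed neuregulin, read 9.77 and 8.82 in the MEKi arrays and 8.65 and 9.57 in the vehicle arrays, higher in the arrays rich in lymphocyte transcripts.

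The ADAMTSs held the only gene under an unadjusted p of 0.05. Adamts12, which can cut cartilage oligomeric matrix protein, read 6.50 and 6.44 in the MEKi arrays and 8.10 and 7.28 in the vehicle arrays. The MEKi arrays differed by 0.06 and both lay below vehicle, by -1.22 log2 units (SE 0.34, limma unadjusted p = 0.0255, adjusted p = 1). Without vehicle 1 the difference was -0.81. A second Adamts12 probe set, which read between 3.12 and 3.27, at the floor, had the opposite sign. Of the aggrecanases, Adamts4 read 7.05 and 9.45 in the MEKi arrays and 9.40 and 7.91 in the vehicle arrays, while Adamts5 read 7.71 and 4.49 in the MEKi arrays and 7.51 and 8.02 in the vehicle arrays. Adamts4 thus read high in 1 array of each label, and Adamts5 was low in MEKi 2 alone, by 3.22 log2 units against MEKi 1. Adamts1, which cuts aggrecan and versican, read 7.39 and 9.06 in the MEKi arrays and 8.51 and 7.65 in the vehicle arrays. Adamts9, another versican-cutting enzyme, read 7.40 and 10.00 in the MEKi arrays and 9.14 and 7.74 in the vehicle arrays, so that both were higher in MEKi 2 and vehicle 1. Adamts10, linked to fibrillin microfibrils, read 8.39 and 8.72 in the MEKi arrays and 7.26 and 8.52 in the vehicle arrays, with vehicle 1 alone low.

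Single arrays were then compared in pairs, which allows no test. MEKi 1 and vehicle 2, of opposite labels, were closest, with 0 of 32 genes higher and 1 lower in MEKi 1 by over 1 log2 unit (0.287% and 0.831% of all genes). That gene was Mmp9. MEKi 1 against vehicle 1 gave 2 higher and 12 lower (6.67% and 8.74%), whereas MEKi 2 against vehicle 2 gave 8 higher and 3 lower (8.25% and 9.15%), so the balance turned with the arrays chosen. MEKi 2 against vehicle 1 gave 4 higher and 9 lower (2.26% and 4.34%). Within labels, MEKi 1 was higher than MEKi 2 in 3 genes and lower in 11 (9.55% and 10.3%), and vehicle 1 was higher than vehicle 2 in 7 and lower in 1 (5.81% and 5.84%).

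**Figure D4:**
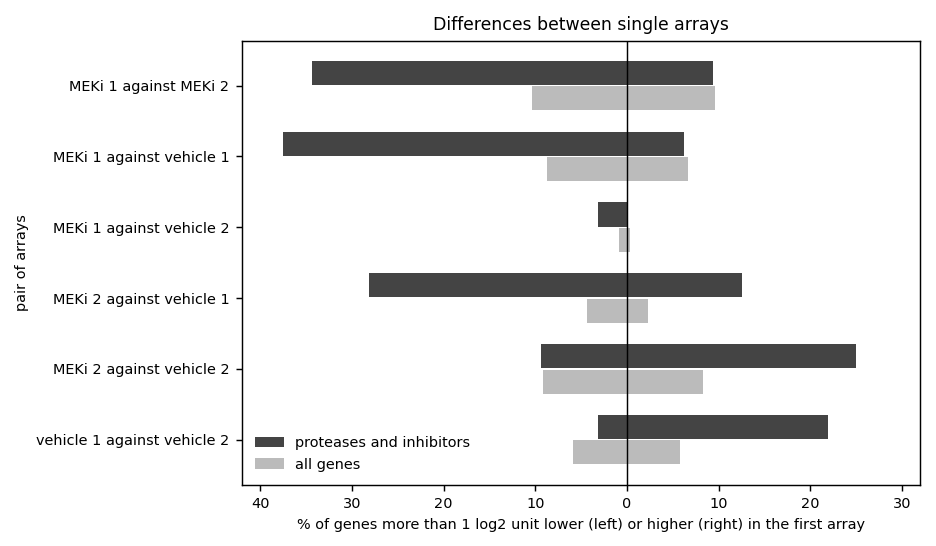
Share of the 32 genes, and of all 17097 genes, that differ by over 1 log2 unit in each direction, for each of the 6 pairs of arrays. The fewest genes differ between MEKi 1 and vehicle 2, which carry opposite labels, and 12 of 32 are lower in MEKi 1 than in vehicle 1.

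Marker genes of the cells that make these proteases also differed between the arrays. Over 14 macrophage and monocyte genes the median was 9.19 and 10.39 in the MEKi arrays and 10.79 and 9.66 in the vehicle arrays. Of these, 13 (92.9%) were highest in vehicle 1, against 43.8% of the 32 proteases and inhibitors and 20.1% of all genes. The lowest reading fell in MEKi 1 for 11 (78.6%), against 50.0% of the 32 and 30.0% of all genes. Over 12 fibroblast genes the medians were 9.16, 8.11, 9.99 and 9.76 in the same order. Of these, 8 (66.7%) were lowest in MEKi 2, against 25.0% of the 32 proteases and inhibitors and 27.2% of all genes. The fibroblast genes Pdgfra, Pdgfrb and Dcn were highest there. Endothelial genes, 10 in all, had medians of 8.01 and 9.02 in the MEKi arrays and 9.02 and 8.29 in the vehicle arrays. Over 15 tumor epithelial genes the medians were 6.20, 6.04, 6.46 and 6.61. Both MEKi arrays were below both vehicle arrays in 9 of the 15, against 10.2% of all genes. Adipocyte genes, 7 measured, had medians of 7.59, 5.99, 9.09 and 8.50. The 10 reference genes measured held medians between 13.05 and 13.17. The part of cell content in the protease and inhibitor readings was not tested.

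**Figure D5:**
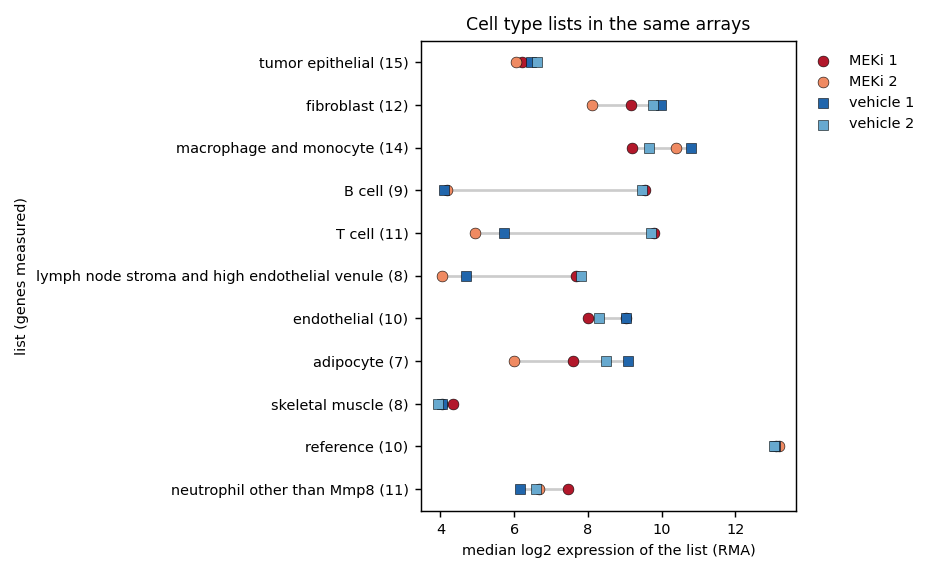
Median log2 expression value of each cell type marker list in the 4 arrays (points), with the number of genes measured in brackets. B cell, T cell and lymph node stroma medians are high in MEKi 1 and vehicle 2, macrophage and endothelial medians in MEKi 2 and vehicle 1, and the reference genes stay between 13.05 and 13.17.

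Further genes of the pathway, 86 measured in 4 lists, also gave 0 calls by limma, against 0% of all probe sets. The limma unadjusted p was under 0.05 for 1 activator, Pcsk5, and 2 matrix substrates, Nid1 and Postn. It was so for 1.23% of all genes and 0.901% of probe sets. Of 30 measured activators, cofactors and binding partners, 10 (33.3%) read lower in both MEKi arrays and 0 higher, against 10.2% and 11.0% of all genes, with a median difference of -0.33. Centring on tumor epithelial genes gave 4 lower and 3 higher, against 1.25% and 55.4% of all genes. The widest ranges were in the mast cell proteases Cma1, which read 7.76 and 4.26 in the MEKi arrays and 9.52 and 8.07 in the vehicle arrays, and Tpsb2, at 6.88, 4.82, 9.0 and 7.44. Thbs2, a thrombospondin that clears MMPs through Lrp1, read 8.06, 6.96, 9.71 and 8.45, and Ctsk, a collagen-cutting cathepsin, 8.48, 6.88, 9.45 and 9.0. All were lowest in MEKi 2 and highest in vehicle 1. Of 17 matrix substrates, 6 (35.3%) read lower in both MEKi arrays and 1 higher (5.88%), against 10.2% and 11.0% of all genes. Their median difference was -0.39. With centring on tumor epithelial genes, 4 read lower and 2 higher, against 1.25% and 55.4% of all genes. The collagen genes Col1a1 (9.06, 7.73, 10.09 and 9.55) and Col5a2 (9.98, 8.58, 11.15 and 10.35) and the proteoglycan Lum (9.26, 7.38, 10.29 and 9.98) followed the same order, whereas Vcan, a substrate of Adamts1, Adamts4 and Adamts9, read 4.96 and 7.90 in the MEKi arrays and 6.73 and 5.94 in the vehicle arrays. By the brightest probe sets, Vcan shared with those enzymes a lowest reading in MEKi 1 and a highest in MEKi 2. Vcan has 5 probe sets, of which only the brightest was used here. Further probe sets of Adamts4 (3.73, 4.57, 5.48 and 3.60) and Adamts9 (6.37, 7.32, 8.14 and 6.34) were highest in vehicle 1 instead. The dimmest Adamts9 probe set (4.51, 5.66, 5.30 and 4.28) was highest in MEKi 2 and lowest in vehicle 2. The aggrecanase Adamts5 was lowest in MEKi 2, at 4.49.

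Of 17 membrane proteins that ADAMs shed, 1 read lower in both MEKi arrays (5.88%) and 2 higher (11.8%), against 10.2% and 11.0% of all genes. Their median was -0.03. Centring on tumor epithelial genes gave 0 lower and 5 higher, against 1.25% and 55.4% of all genes. The gene lower before centring was Tgfa, an EGF receptor ligand that Adam17 releases, at 5.62 and 6.86 in the MEKi arrays and 8.69 and 7.02 in the vehicle arrays, a difference of -1.62 (SE 0.78, limma adjusted p = 1). Hbegf, a second ligand, read 6.67, 8.07, 8.88 and 7.51 in the same order, with overlapping groups. Cdh1, E-cadherin, was low in MEKi 2 alone, at 8.19, 6.04, 8.18 and 8.25, and Fasl read 6.10, 3.87, 5.28 and 5.91. Of 22 other MMP, ADAM and ADAMTS genes, 3 (13.6%) read higher and 4 (18.2%) lower in both MEKi arrays, against 11.0% and 10.2% of all genes. Their median was -0.06. After that centring 8 read higher and 1 lower, against 55.4% and 1.25% of all genes. Adamdec1, a macrophage and dendritic cell ADAM-like protease, was high in MEKi 2 alone, at 8.20, 11.32, 8.94 and 8.26. Adam23 (6.74, 3.89, 4.78 and 6.99) and Adamts20 (6.01, 3.29, 3.37 and 5.49) were high in MEKi 1 and vehicle 2, and Adamts15 read 5.61, 3.72, 6.37 and 6.13.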

How the data were processed

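The values that the authors deposited are on a log2 scale, made with RMA per the labels and quantile normalized with the AFFY package in R per the methods. Versions of RMA and AFFY, filters and pooling are not stated in the sources. Of 45141 probe sets, 104 controls were left out. Of 45037 tested, 28898 have 1 symbol, 551 several, and 15588 are unnamed here. All 64 probe sets of the measured genes matched RefSeq through their Entrez identifiers. MEKi was compared with vehicle by limma 3.58.1 (R 4.3.3, two-sided, lmFit then eBayes), with Benjamini-Hochberg adjustment over all probe sets. A call needed p under 0.05, fold change over 1.5 and adjusted p under 0.1. The code of the fit was tested on simulated data with independent noise of equal spread in every probe set. Such data lack the likeness between arrays of opposite labels seen here.

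The genes and lists were chosen with earlier results of these data known. By rule, every measured gene of the set is named with its readings, and statistics are given for those whose groups do not overlap. Of each pathway list, every called gene and up to 4 genes of the widest range are named. Other genes named, the promoter motifs and the counts of groups without overlap were chosen after values had been seen. Alternatives were a stricter adjusted p (0.05), an intensity trend, no moderation, leaving out the dimmest 0.25 of probe sets, centring on reference or tumor epithelial genes, a block for the replicate number, leaving out each array, and other ways to join probe sets. The sources do not say that equal numbers mark pairs. With 2 arrays per group, precision is limited. Tables and figures were made with pandas 2.3.3, numpy 2.4.6 and matplotlib 3.10.9 in Python 3.11.15. Some genes of the families were not analysed here.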

Additional observations from a re-analysis of the deposited data

How the results depend on the processing

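The number of calls was 0 under every alternative, for all probe sets, the 32 genes and the 86 pathway genes. The lowest limma adjusted p over all probe sets was 1 as reported and 0.377 after centring on tumor epithelial genes, where 3846 probe sets had an unadjusted p under 0.05, against 406 as reported. Centring on tumor epithelial genes left 1 gene of the set with both MEKi arrays below vehicle, Adamts12, against 1.25% of all genes. It gave 8 with both above, against 55.4% of all genes. That centring brought the median difference of the inhibitors to -0.02 and moved that of all probe sets from 0.01 to 0.44. Centring on reference genes gave 10 below and 1 above, against 16.3% and 5.83% of all genes. Leaving out each array in turn gave 10 to 20 genes below, against 24.0% to 36.1% of all genes, and 4 to 12 above, against 23.2% to 38.9%. The median difference was then -0.47 to -0.03 over the set and -0.73 to -0.16 over the inhibitors. The cause was not tested. Of the 11 genes without overlap none passed the thresholds under any alternative, and centring on tumor epithelial genes brought Adam10 to -0.02 and Mmp10 to -0.03.

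With the replicate number as a block, limma gave 0 calls among probe sets, 0 in the set and 0 in the pathway lists, with 267 probe sets at an unadjusted p under 0.05, and the median differences stayed at -0.27 over the set and -0.44 over the inhibitors by construction, since each block holds 1 array of each label. Deviations of same-numbered arrays from their group means correlated at r = -0.764, and the crossed pairing, chosen after seeing the data, gave 0 probe sets and 0 genes of the set called, with 1447 probe sets at an unadjusted p under 0.05. Readings near the floor, as for Mmp7, Mmp10 and Mmp16, limit what these arrays can show.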

Other observations

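Several probe sets read 18 of the 32 genes, and they did not always give the same picture. Their differences by label differed in sign for 5 genes (Mmp24, Adam15, Adamts5, Adamts9 and Adamts12), and whether the groups overlapped differed for 6 (Mmp16, Mmp24, Timp3, Adam10, Adamts10 and Adamts12). For 9 genes all probe sets were lowest in the same array. Mmp23 was 1 of these, with its second probe set at 7.09 and 4.39 in the MEKi arrays and 6.21 and 7.38 in the vehicle arrays. In Adamts5, the next 2 probe sets were also lowest in MEKi 2, at 4.84 and 4.28, and the probe set of opposite sign read between 3.08 and 3.58, at the floor. In Adamts9, the sign turned between probe sets above the floor: a second probe set read 6.37 and 7.32 in the MEKi arrays and 8.14 and 6.34 in the vehicle arrays, a difference of -0.40 against 0.25 in the brightest. For Adam15, 3 dimmer probe sets were higher in MEKi 2 and vehicle 1, the first of them at 6.01, 7.28, 7.24 and 6.09, an order that the brightest probe set showed less clearly.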
